A study of Mus musculus with 12 samples.

Results

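The collagen genes are the protein-coding genes of the deposited count table whose symbol names a collagen alpha chain (Col, the collagen type, a, the chain number). They were 44 of 54532 genes. RNA sequencing had been done on whole mouse spinal cord in 12 libraries, 3 in each of 4 groups, and each library was labelled as a biological replicate. All mice were C57BL/6, 2 to 3 months old. The groups were Drd2mGFAP conditional knockout mice (cKO) at day 17 of experimental autoimmune encephalomyelitis (EAE), their littermate controls (labelled wt) at day 17 of EAE, cKO mice at basal and control mice at basal. EAE is an immune attack on myelin raised by immunisation and is used as a model of multiple sclerosis. Drd2 encodes the dopamine D2 receptor, and the cKO label names GFAP, whose promoter is active in astrocytes. The label gives neither the Cre line nor the alleles of the controls.

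Collagens are proteins of the extracellular matrix built from alpha chains that wind into a triple helix. Fibrillar collagens form tensile fibres, type IV collagens form the sheet of the basement membrane under endothelium and glia, and the other classes coat fibrils, link them to cells or span the cell membrane. In the healthy spinal cord fibrillar collagen lies mainly in the meninges, nerve roots and the walls of larger vessels, and basement membrane collagen lies around all vessels and under the pial surface.

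The 44 genes were put into 9 classes by protein type: 11 fibrillar, 9 fibril-associated, 6 type IV (basement membrane), 2 multiplexin, 6 type VI (beaded filament), 3 short-chain network, 1 anchoring fibril, 4 transmembrane and 2 left unclassed (Col26a1 and Col28a1). A gene entered a test only if it passed a filter on low counts. In the fit of all 12 libraries 42 passed, and the cartilage collagen Col10a1 and the hemidesmosome collagen Col17a1 did not, with at most 0.11 and 0.532 CPM in any library. In the 6 EAE libraries 41 passed and in the 6 basal libraries 40. CPM are counts scaled to the library total and its TMM factor. Levels of different genes are compared per kb of gene length.

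Among the 12 libraries 2 stood apart, cKO basal 2 and cKO EAE 3, and results that rest on them are also given without both, as the 10-library fit. The library cKO basal 2 had counts in 17220 genes, against 24303 to 26056 in the other 11, and the tested collagens Col14a1, Col19a1, Col4a3, Col6a5, Col8a2 and Col28a1 were at 0 in it. The library labelled cKO EAE 3 had 6.56 CPM of Cd74, an antigen-presentation gene of leukocytes, against 339 and 531 CPM in the other cKO EAE libraries, 887 to 2733 CPM in control EAE and 0.999 to 3.09 CPM in the basal libraries. Library totals ran from 15128913 to 17592105 counts. Gfap, a marker of astrocytes, was present in every library at 956 to 5761 CPM. Xist, the RNA that coats the inactive X in females, was at 0 to 0.287 CPM in the EAE libraries and 316 to 752 CPM in the basal ones, and Y-linked Ddx3y was at 69.6 to 74.4 CPM in the EAE libraries and 0 in the basal ones. Disease and sex therefore cannot be told apart in any comparison of EAE with basal. Drd2 had 6.72, 12.4 and 19.4 CPM in cKO EAE, 8.87, 8.99 and 9.61 CPM in control EAE, 17.6, 33.3 and 34.7 CPM in cKO basal and 26.5, 19.4 and 19.7 CPM in control basal libraries. The cKO and control values overlapped in both states. The labels do not name the deleted exons.

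The 250 bases before the annotated start are shown for 3 of the collagens with the clearest EAE response, a sequence each of a fibril former rich in vessel walls and scars (Col3a1, type III), of the chain that starts the assembly of thin fibrils (Col5a1, type V) and of a short-chain network collagen made by vascular cells (Col8a1, type VIII). They were chosen among the responding genes because no annotated exon lies in these windows. The sequences come from RefSeq, build GRCm38.p6, and are written 5' to 3' on the strand of the gene; the last base is next to the start. Capitals mark TATAAA in Col3a1 and the GC box GGGCGG or its reverse complement CCGCCC in the others. The window of Col3a1 lies at chr1:45311288-45311537 on the plus strand, Col5a1 at chr2:27886175-27886424 on the plus strand and Col8a1 at chr16:57754738-57754987 on the minus strand.
Col3a1: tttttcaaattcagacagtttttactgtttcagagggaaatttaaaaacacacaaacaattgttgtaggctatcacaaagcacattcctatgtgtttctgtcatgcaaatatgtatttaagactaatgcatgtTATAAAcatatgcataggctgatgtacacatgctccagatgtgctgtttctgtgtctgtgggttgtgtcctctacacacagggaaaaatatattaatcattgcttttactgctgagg
Col5a1: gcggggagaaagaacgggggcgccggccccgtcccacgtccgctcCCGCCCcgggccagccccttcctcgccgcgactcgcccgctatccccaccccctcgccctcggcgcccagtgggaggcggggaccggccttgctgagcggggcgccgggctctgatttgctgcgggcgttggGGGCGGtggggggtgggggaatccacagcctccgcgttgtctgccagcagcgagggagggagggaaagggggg
Col8a1: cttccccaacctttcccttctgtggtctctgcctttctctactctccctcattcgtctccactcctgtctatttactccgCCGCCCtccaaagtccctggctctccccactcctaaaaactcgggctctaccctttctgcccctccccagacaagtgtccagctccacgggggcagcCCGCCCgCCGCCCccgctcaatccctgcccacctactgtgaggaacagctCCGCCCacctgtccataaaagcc
The windows differ in base composition. G and C made up 35.2% of the bases for Col3a1, 76.4% for Col5a1 and 60.8% for Col8a1. RefSeq windows were found for 35 of the 44 collagens, 38 windows in all because some genes have several starts. GGGCGG on either strand was in 22 of the 38 windows (57.9%), against 32.7% of all 32851 mouse windows of that length. CCAAT on either strand was in 34.2% of the collagen windows and 33.8% of all windows, and TATAAA on either strand in 13.2% and 12.4%. A match is a run of letters and was not tested as a site.

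The summed level of collagen transcripts per kb stood highest in control EAE cords; the sums and shares were not tested. Summed over the 44 genes, the level was 114 ± 23.0 CPM per kb in cKO EAE, 161 ± 3.44 in control EAE, 81.4 ± 14.5 in cKO basal and 86.3 ± 11.97 in control basal cords (SD, n = 3 each). Col1a1, Col1a2 and Col3a1 together made up 15.2% of that sum in cKO EAE (6.06% to 21.5% by library), 20.8% in control EAE (17.2% to 23.8% by library), 5.05% in cKO basal and 5.13% in control basal. Without cKO EAE 3 the cKO EAE mean was 19.8%, and the cKO EAE and control EAE libraries overlapped. The 2 chains of type XI, Col11a1 and Col11a2, made up 11.7% in cKO EAE, 7.90% in control EAE, 15.3% in cKO basal and 18.1% in control basal. Col4a1 and Col4a2, the main chains of the basement membrane, made up 18.5% in cKO EAE, 20.9% in control EAE, 13.6% in cKO basal and 16.4% in control basal. The cKO basal mean rested on cKO basal 2, at 4.37%, with cKO basal 1 and 3 at 19.3% and 17.1%. By library the share was 17.5% to 20.4% in cKO EAE and 14.5% to 17.4% in control basal. In bulk tissue, fewer cells of a type and less RNA per cell cannot be told apart.

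**Figure D1:**
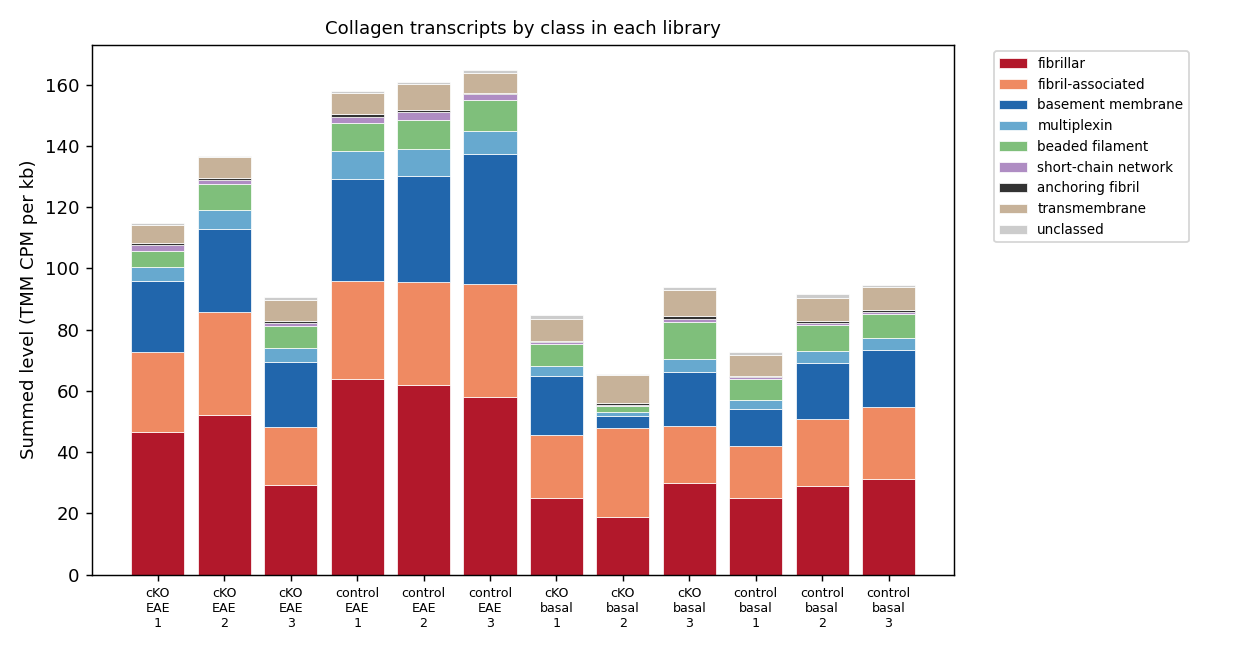
Summed TMM CPM per kb (vertical axis) of the collagen genes in each of the 12 libraries, stacked by class. The control EAE bars stand highest (group mean 161), cKO EAE 3 stands at the height of the basal bars, and cKO basal 2 has the thinnest basement membrane band.

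In control mice 10 of the 42 collagens tested were higher in EAE than at basal and none was lower at an adjusted p below 0.05 (edgeR's quasi-likelihood F test, Benjamini-Hochberg adjusted over all genes). Of all 18601 genes tested 12.1% were called higher and 5.05% lower. The 10 were the fibrillar Col1a1, Col1a2, Col3a1 and Col5a1, the fibril-associated Col12a1, Col16a1 and Col20a1, and Col4a1, Col18a1 and Col8a1. The median log2 fold change of the 42 was 0.47, against -0.01 over all genes tested, with 32 positive and 10 negative. Regardless of the test, 23 collagens had all 3 control EAE libraries above all 3 control basal libraries (29.8% of all genes did) and 3 had them all below, Col9a2, Col13a1 and Col25a1 (27.0% of all genes did). The count of 10 depended on cKO basal 2, which enters through the shared spread: without it 21 were called, 19 higher and 2 lower, where 42.9% of all genes were called. It was 6 without control basal 1, control basal 2, control basal 3 or control EAE 3. The share of all genes called in those fits is not given here, so that drop is not read as a result about collagens. In the 10-library fit 20 were called higher and 3 lower, where 24.9% and 20.8% of all genes were called.

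In cKO mice no collagen passed the same test in EAE against basal, where 0.0376% of all genes did. Unadjusted p values were below 0.05 for 10 of the 42, DESeq2's Wald test called 6 (6.66% of all genes) and limma voom with sample weights 13 (19.6% of all genes). The median log2 fold change of the collagens was 0.52, against 0.08 over all genes; scaling moved the median of all genes in this comparison to 0.14 with TMM, 0.12 with DESeq2's factors and 0.26 with library totals, on log2 CPM. In 7 genes all 3 cKO EAE libraries stood above all 3 cKO basal libraries (9.8% of all genes), namely Col1a1, Col3a1, Col5a1, Col5a3, Col4a1, Col4a2 and Col15a1, and in 0 they stood all below (5.78% of all genes). Without cKO EAE 3 there were 5 calls, all higher (5.4% of all genes were called higher). In the 10-library fit 9 were called higher, Col1a1, Col1a2, Col3a1, Col5a1, Col5a3, Col4a1, Col12a1, Col16a1 and Col8a1, and 2 lower, Col25a1 and Col26a1, where 10.8% and 3.51% of all genes were called.

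The difference between the responses of cKO and control mice passed the test for no collagen and for 0.0% of all genes, with 0 unadjusted p values below 0.05 among the 42. DESeq2's Wald test called 0 (0.489% of all genes) and limma voom with sample weights 8 (16.1% of all genes), 7 of them with the lower value in cKO. The median of this difference was -0.36 on the log2 scale over the collagens and -0.05 over all genes.

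**Figure D2:**
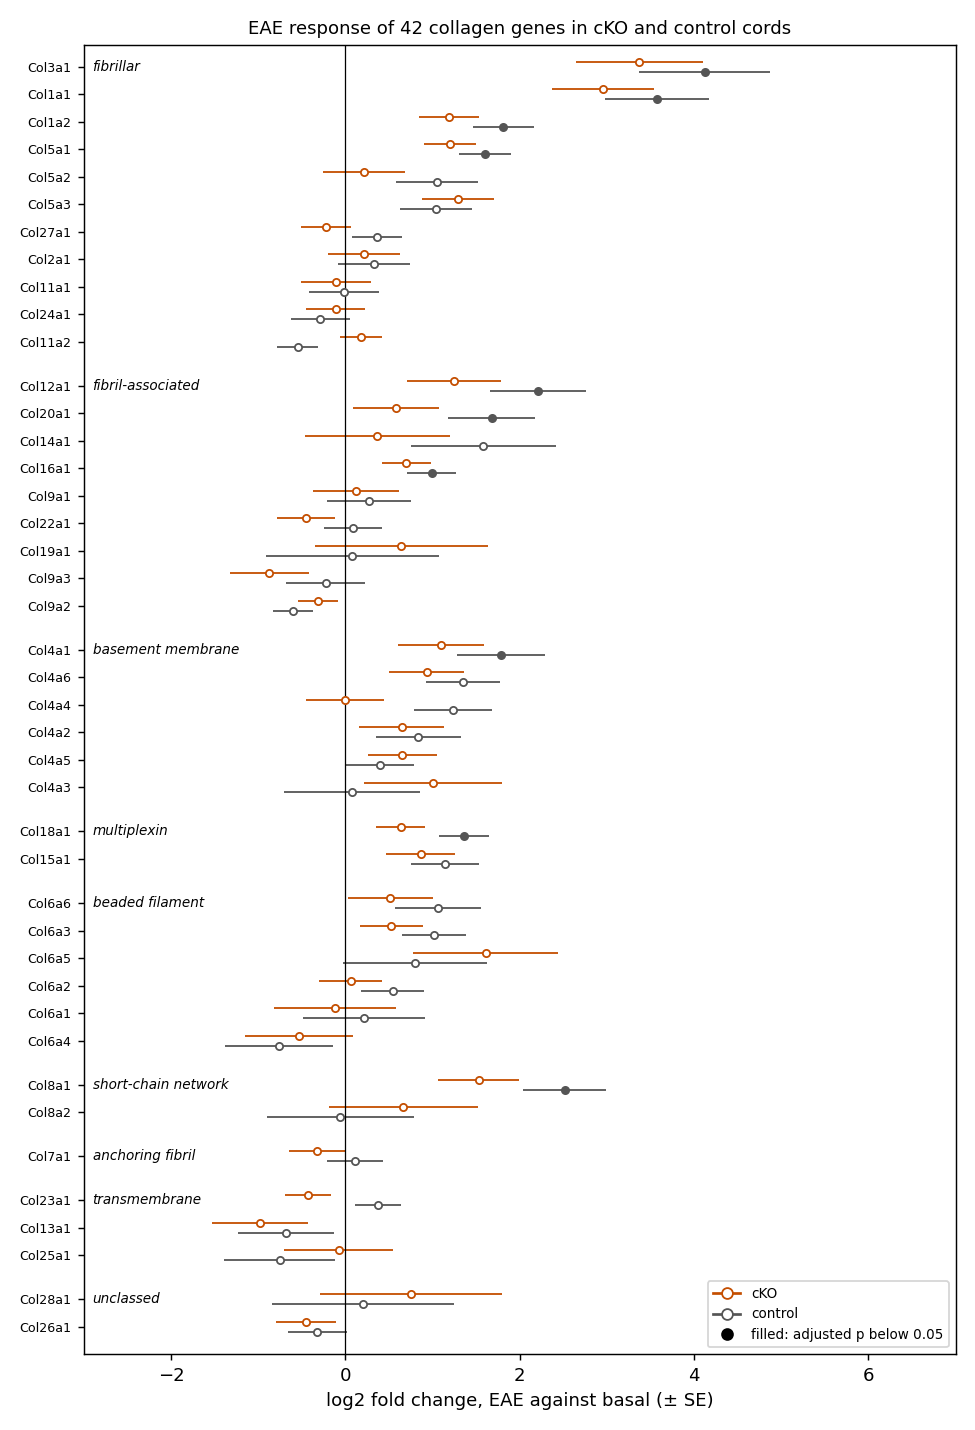
Log2 fold change in EAE against basal (horizontal axis, bars are SE) for the 42 tested collagens by class, for cKO (above) and control mice (below). Filled points passed an adjusted p below 0.05, all 10 of them in controls, and Col3a1 and Col1a1 lie farthest to the right in both genotypes.

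Type I collagen, made of the chains of Col1a1 and Col1a2, is the main tensile fibre of connective tissue and scar. In mm10, as the deposited table gives it, Col1a1 (ENSMUSG00000001506) spans 94936224 to 94953042 on chromosome 11, plus strand, and Col1a2 (ENSMUSG00000029661) spans 4504814 to 4541544 on chromosome 6, plus strand. Col1a1 had 75.2, 76.9 and 13.8 CPM in cKO EAE, 125, 113 and 87.9 CPM in control EAE, 9.12, 3.36 and 8.81 CPM in cKO basal and 7.43, 10.7 and 9.16 CPM in control basal libraries. All EAE libraries stood above all basal ones, with cKO EAE 3 close to the basal range. The log2 fold change in EAE was 2.95 (SE 0.59, edgeR adjusted p = 0.073) in cKO and 3.58 (SE 0.60, edgeR adjusted p = 0.0035) in control mice, 11.9-fold in controls. Col1a2 had 94.5, 93.2 and 32.7 CPM in cKO EAE, 126, 110 and 97.6 CPM in control EAE, 26.1, 40.7 and 29.7 CPM in cKO basal and 31.5, 32.9 and 30.5 CPM in control basal libraries. Here cKO EAE 3 lay inside the basal range. EAE against basal gave a log2 fold change of 1.19 (SE 0.35, edgeR adjusted p = 0.14) in cKO and 1.81 (SE 0.35, edgeR adjusted p = 0.0062) in control mice. In the 10-library fit Col1a1 and Col1a2 passed in cKO mice too, with log2 fold changes of 3.07 and 1.74 (edgeR adjusted p = 1.1e-06 and 5.2e-06).

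Type III collagen, a homotrimer of the Col3a1 chain, runs with type I in vessel walls and healing wounds, and its start lies beside the TATAAA window shown above. The gene (ENSMUSG00000026043) spans 45311538 to 45349706 on chromosome 1, plus strand. Col3a1 had 54.8, 53.8 and 7.53 CPM in cKO EAE, 82.1, 82.0 and 69.9 CPM in control EAE, 4.53, 0.908 and 5.598 CPM in cKO basal and 4.83, 3.75 and 4.86 CPM in control basal libraries. No EAE library reached down into the basal range, and all 3 cKO EAE libraries lay below all 3 control EAE libraries. EAE against basal gave 3.37 (SE 0.73, edgeR adjusted p = 0.075) in cKO and 4.12 (SE 0.75, edgeR adjusted p = 0.0047) in control mice on the log2 scale. That of the controls was the largest among the 42.

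Type V collagen joins type I fibrils and sets their diameter. Col5a1 had 21.5, 22.1 and 13.2 CPM in cKO EAE, 27.4, 29.9 and 23.5 CPM in control EAE, 10.3, 6.45 and 7.92 CPM in cKO basal and 6.35, 11.6 and 8.66 CPM in control basal libraries, and it was called in controls (log2 1.60, SE 0.30, edgeR adjusted p = 0.0052). Its partners Col5a2 and Col5a3 had log2 fold changes of 0.22 (SE 0.47) and 1.29 (SE 0.41) in cKO mice and 1.05 (SE 0.47) and 1.04 (SE 0.41) in control mice and did not pass. Col5a2 and Col5a3 both passed in control mice in the 10-library fit (edgeR adjusted p = 0.011 and 0.00021), and Col5a3 passed in cKO mice (edgeR adjusted p = 0.0029).

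The remaining fibrillar genes passed in no comparison of EAE with basal over the 12 libraries. Col11a1 and Col11a2, known from cartilage and here among the 6 highest collagens per kb, had 41.3 to 103 CPM and 37.5 to 55.6 CPM in cKO EAE, 73.7 to 104 and 32.1 to 49.3 CPM in control EAE, 76.3, 37.8 and 123 and 40.9 to 47.9 CPM in cKO basal, and 82.8 to 92.5 and 44.6 to 69.4 CPM in control basal libraries. The EAE and basal libraries overlapped for both genes in both genotypes. Log2 fold changes in EAE were -0.10 (SE 0.40) in cKO and -0.02 (SE 0.40) in control mice for Col11a1, and 0.18 (SE 0.24) in cKO and -0.55 (SE 0.24) in control mice for Col11a2. Col11a2 passed as lower in controls in the 10-library fit (log2 -0.54, edgeR adjusted p = 0.026). The sum of 8 other markers of cartilage and bone was 25.4 to 34.4 CPM in cKO EAE, 11.99 to 17.0 CPM in control EAE, 17.8 to 40.8 CPM in cKO basal and 23.2 to 40.8 CPM in control basal libraries, most of it Acan, a proteoglycan also of neurons' perineuronal nets, while the cartilage matrilin Matn1 was at most 0.755 CPM. Col24a1, Col27a1 and Col2a1, the cartilage fibril chain, had log2 fold changes between -0.29 and 0.36 in both genotypes.

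**Figure D3:**
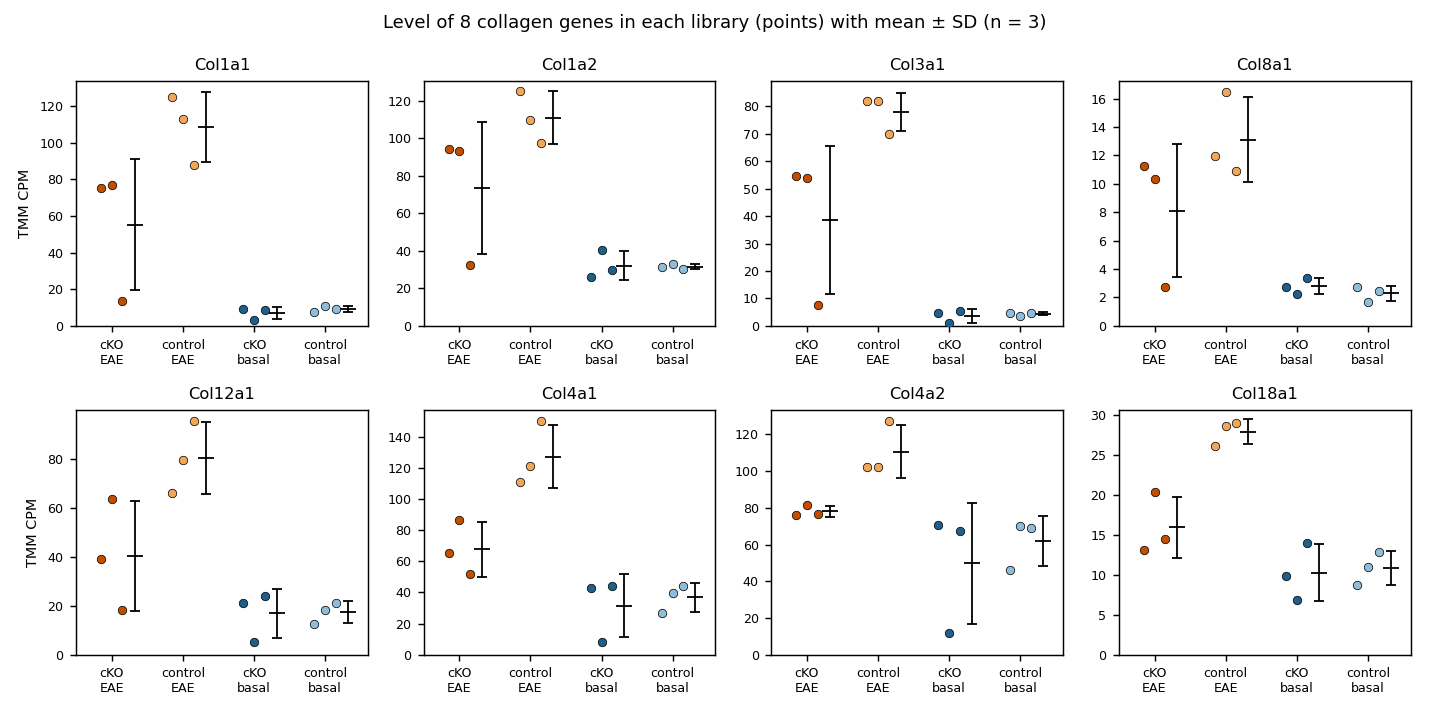
TMM CPM (vertical axes, each from 0) of 8 collagens in the 12 libraries by group, with mean ± SD (n = 3). For Col1a1, Col3a1, Col8a1 and Col12a1 the points of control EAE stand clear of the basal ones, while cKO EAE 3 lies near the basal points, for Col1a1 at 13.8 CPM.

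Among the fibril-associated collagens, which bind the surface of fibrils, Col12a1, Col16a1 and Col20a1 were higher in EAE in control mice. Col12a1, a chain of tendon and wound matrix, had 39.2, 63.4 and 18.3 CPM in cKO EAE, 66.0, 79.3 and 95.4 CPM in control EAE, 21.3, 5.36 and 24.1 CPM in cKO basal and 12.5, 18.3 and 21.2 CPM in control basal libraries. All control EAE libraries were above all others, and cKO EAE 3 lay inside the basal range. In EAE the log2 fold change was 1.25 (SE 0.54, edgeR adjusted p = 0.24) in cKO and 2.21 (SE 0.55, edgeR adjusted p = 0.019) in control mice. Col16a1, the second highest collagen per kb over all libraries at 11.1 CPM per kb, had 93.3, 106 and 50.6 CPM in cKO EAE, 94.7, 105 and 133 CPM in control EAE, 52.3, 61.5 and 40.2 CPM in cKO basal and 48.4, 54.2 and 64.1 CPM in control basal libraries. Its log2 fold change was 0.70 (SE 0.28, edgeR adjusted p = 0.22) in cKO and 0.99 (SE 0.28, edgeR adjusted p = 0.033) in control mice. Col20a1 had 6.26, 17.6 and 5.52 CPM in cKO EAE, 18.5, 21.5 and 13.5 CPM in control EAE, 6.10, 4.27 and 9.17 CPM in cKO basal and 3.18, 7.61 and 5.90 CPM in control basal libraries, and it passed in controls (log2 1.68, SE 0.50, edgeR adjusted p = 0.041). Only cKO EAE 2 of its cKO EAE libraries lay above the basal range.

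The type IX chains, which coat type II and XI fibrils in cartilage, did not pass in any group comparison of the 12 libraries. Col9a3 had 15.2, 19.3 and 12.02 CPM in cKO EAE, 20.1, 16.2 and 12.8 CPM in control EAE, 18.4, 54.0 and 12.7 CPM in cKO basal and 17.5, 21.1 and 18.8 CPM in control basal libraries. The value of 54.0 CPM was that of cKO basal 2. Col9a2 had all 3 control EAE libraries (6.15 to 6.86 CPM) below all 3 control basal libraries (8.26 to 11.7 CPM) and passed as lower in controls in the 10-library fit (log2 -0.59, SE 0.17, edgeR adjusted p = 0.015). Col9a1, Col14a1, Col19a1 and Col22a1 had log2 fold changes between -0.45 and 0.64 in cKO mice and between 0.08 and 1.58 in control mice, and none passed in the 12 libraries. Col14a1 passed in controls in the 10-library fit (edgeR adjusted p = 0.0039).

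Type IV collagen is the network of every basement membrane, and Col4a1 and Col4a2 supply 2 chains and 1 chain of its common trimer. Col4a1 (ENSMUSG00000031502) spans 11198423 to 11312826 on chromosome 8, minus strand, and Col4a2 (ENSMUSG00000031503) 11312805 to 11449287, plus strand. Col4a1 had 65.1, 86.8 and 51.7 CPM in cKO EAE, 111, 121 and 150 CPM in control EAE, 42.6, 8.08 and 44.1 CPM in cKO basal and 26.6, 39.9 and 44.3 CPM in control basal libraries. Control EAE stood above cKO EAE, and cKO EAE above all basal libraries, with no overlap. In EAE Col4a1 had a log2 fold change of 1.10 (SE 0.50, edgeR adjusted p = 0.25) in cKO and 1.78 (SE 0.50, edgeR adjusted p = 0.033) in control mice. Col4a2, the highest collagen per kb over all libraries at 11.4 CPM per kb, had 76.3, 81.5 and 76.6 CPM in cKO EAE, 102, 102 and 128 CPM in control EAE, 70.5, 11.8 and 67.3 CPM in cKO basal and 46.0, 70.3 and 69.3 CPM in control basal libraries. For Col4a2 it was 0.65 (SE 0.49, edgeR adjusted p = 0.49) in cKO and 0.84 (SE 0.49, edgeR adjusted p = 0.31) in control mice. It passed in controls in the 10-library fit (log2 0.85, SE 0.16, edgeR adjusted p = 0.00094). In cKO mice the 10-library fit gave 0.18 (SE 0.20, edgeR adjusted p = 0.62) for Col4a2. For Col4a1 it gave 0.80 (SE 0.23, edgeR adjusted p = 0.037) in cKO mice.

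Col4a3 to Col4a6 form the trimers of kidney, eye and smooth muscle basement membranes. Col4a5 had 13.9 to 15.3 CPM in cKO EAE, 14.2 to 15.7 CPM in control EAE, 4.09 to 15.7 CPM in cKO basal and 8.32 to 13.1 CPM in control basal libraries. Col4a3, Col4a4 and Col4a6 were at most 4.07 CPM in any library. None of the 4 passed in the fit of all libraries. Col4a4 and Col4a6 passed in control mice in the 10-library fit (log2 1.23 and 1.35, edgeR adjusted p = 0.012 and 0.0035).

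The multiplexins Col15a1 and Col18a1 sit in the zone between basement membrane and stroma, and a C-terminal piece of the Col18a1 protein is endostatin. Col18a1 (ENSMUSG00000001435) spans 77052178 to 77166548 on chromosome 10, minus strand. It had 13.2, 20.3 and 14.4 CPM in cKO EAE, 26.2, 28.7 and 29.1 CPM in control EAE, 9.88, 6.90 and 14.1 CPM in cKO basal and 8.70, 11.03 and 12.9 CPM in control basal libraries. Control EAE stood apart above the other 3 groups, and cKO EAE 1 was inside the cKO basal range. EAE against basal gave log2 fold changes of 0.63 (SE 0.29, edgeR adjusted p = 0.25) in cKO and 1.36 (SE 0.29, edgeR adjusted p = 0.0091) in control mice. Col15a1 had 16.0 to 21.4 CPM in cKO EAE, 21.5 to 34.6 CPM in control EAE, 3.91 to 14.5 CPM in cKO basal and 11.4 to 14.5 CPM in control basal libraries, with log2 fold changes of 0.86 (SE 0.39) in cKO and 1.14 (SE 0.39) in control mice that did not pass. In the 10-library fit Col15a1 passed in controls (edgeR adjusted p = 0.00026).

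In the classes that follow, Col8a1 was the 1 collagen called in EAE against basal over the 12 libraries. Col8a1, a short-chain network collagen whose GC box window is shown above, had 11.3, 10.4 and 2.73 CPM in cKO EAE, 11.9, 16.5 and 10.9 CPM in control EAE, 2.73, 2.27 and 3.39 CPM in cKO basal and 2.73, 1.71 and 2.43 CPM in control basal libraries. The value of cKO EAE 3 lay inside the basal range. Col8a1 had a log2 fold change of 1.53 (SE 0.47, edgeR adjusted p = 0.15) in cKO and 2.51 (SE 0.48, edgeR adjusted p = 0.0057) in control mice. Col6a1, Col6a2 and Col6a3, the chains of the type VI beaded filaments around cells, had log2 fold changes of -0.12, 0.06 and 0.53 in cKO and 0.21, 0.54 and 1.02 in control mice (SE 0.36 to 0.70), and none passed. Col6a2, Col6a3 and Col6a6 passed in controls in the 10-library fit (edgeR adjusted p = 0.030, 0.0048 and 0.027). The low chains Col6a4, Col6a5 and Col6a6 were at most 4.92 CPM in any library.

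Of the transmembrane collagens Col25a1, needed for the motor innervation of muscle in the mouse embryo, had 24.5, 24.6 and 35.9 CPM in cKO EAE, 19.0, 22.9 and 20.96 CPM in control EAE, 34.0, 3.63 and 51.8 CPM in cKO basal and 28.4, 36.0 and 41.5 CPM in control basal libraries. All control EAE libraries were below all control basal ones and below all cKO EAE ones. It did not pass in the fit of all libraries (log2 -0.08, SE 0.63, in cKO and -0.75, SE 0.63, in control mice), and in the 10-library fit it fell in both (log2 -0.82, edgeR adjusted p = 0.023, in cKO and -0.75, edgeR adjusted p = 0.0043, in control mice). Choline acetyltransferase Chat, a marker of motor neurons, was at 19.3 to 46.0 CPM in cKO EAE, 5.07 to 12.1 CPM in control EAE, 0.636 to 36.9 CPM in cKO basal and 20.1 to 30.5 CPM in control basal libraries; its part in the Col25a1 values was not tested. Col23a1, at 4.86 CPM per kb over all libraries the highest of its class, had log2 fold changes of -0.43 (SE 0.26) in cKO and 0.38 (SE 0.26) in control mice. Its cKO basal libraries had 25.0, 47.0 and 25.4 CPM, the high value in cKO basal 2. In the 10-library fit its log2 fold change was -0.05 (SE 0.18) in cKO and 0.38 (SE 0.15) in control mice, and neither passed. Col13a1 was at most 2.63 CPM, and the anchoring fibril collagen Col7a1 had 4.02 to 7.41 CPM in cKO EAE, 5.41 to 7.43 CPM in control EAE, 4.53 to 8.45 CPM in cKO basal and 5.21 to 7.12 CPM in control basal libraries.

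Chains that join in 1 trimer were compared with each other, and no ratio passed the correction over the ratios tested. Per base of gene length, the ratio of Col1a1 to Col1a2 was 1.51, 1.56 and 0.797 in cKO EAE, 1.88, 1.94 and 1.70 in control EAE, 0.661, 0.156 and 0.563 in cKO basal and 0.447, 0.616 and 0.569 in control basal libraries. The deposited length of Col1a2, 12426 bases, is the union of all its exons, so the height of this ratio depends on that length, while its change between groups does not depend on length or on scaling. The ratio was 3.19-fold higher in EAE in cKO and 3.41-fold higher in control mice, with no overlap, and without cKO basal 2 it was 2.02-fold higher in cKO (with all libraries, 2-sided exact permutation p = 0.1 each, the smallest that 3 against 3 allows, Benjamini-Hochberg 0.4 over the 20 ratios tested, 5 chain pairs in 4 comparisons). Col4a1 to Col4a2 was 0.757, 0.943 and 0.598 in cKO EAE, 0.959, 1.05 and 1.04 in control EAE, 0.537, 0.607 and 0.580 in cKO basal and 0.513, 0.504 and 0.566 in control basal libraries. It was 1.31-fold higher in EAE in cKO mice (exact permutation p = 0.2), where cKO EAE 3 overlapped the basal libraries, and 1.93-fold higher in controls with no overlap (exact permutation p = 0.1). Both genes start head to head and overlap by 22 bases. The ratios of Col5a1 to Col5a2, Col11a1 to Col11a2 and Col6a1 to Col6a2 overlapped between the groups in all 4 comparisons (exact permutation p = 0.2 or more).

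**Figure D4:**
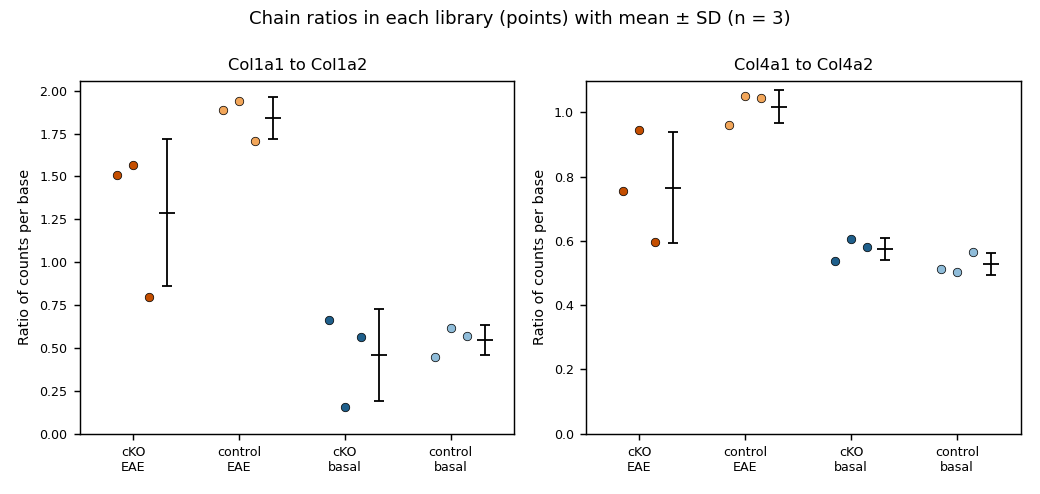
Ratio of counts per base of gene length (vertical axes, from 0) of Col1a1 to Col1a2 and of Col4a1 to Col4a2 in each library by group, with mean ± SD (n = 3). EAE libraries lie higher for type I in both genotypes, and for type IV all 3 control EAE points lie at 0.959 or more.

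At day 17 of EAE, Col18a1 was lower in cKO than in control cords, and the basement membrane chains Col4a1 and Col4a2 lay just short of the threshold. Of 41 collagens tested in the 6 EAE libraries Col18a1 was the 1 called (log2 -0.77, SE 0.17, edgeR adjusted p = 0.048). Of all 17914 genes 1.54% were called lower and 6.13% higher, so 1 of 41 was a share near that of all genes called lower. The next 4 by p were Col4a1 (log2 -0.87, SE 0.21, edgeR adjusted p = 0.051), Col4a2 (-0.47, SE 0.11, adjusted p = 0.051), the fibril-associated Col14a1 (-1.17, SE 0.30, adjusted p = 0.058) and Col5a2 (-0.98, SE 0.28, adjusted p = 0.068). In 14 collagens all 3 cKO EAE libraries lay below all 3 control EAE libraries (26.6% of all genes did), and in 1, Col25a1, all lay above (21.2% of all genes did). The count rested on the libraries chosen: it was 0 without control EAE 1, without control EAE 2, without control EAE 3 or without cKO EAE 1, 7 without cKO EAE 2 (all lower, where 7.9% of all genes were) and 0 with all 12 libraries in the fit.

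Without cKO EAE 3, 5 of 41 collagens were called lower in cKO, a share near the 9.1% of all genes. They were Col3a1 (log2 -0.48, SE 0.11, edgeR adjusted p = 0.024), Col4a1 (-0.71, SE 0.16, adjusted p = 0.025), Col4a2 (-0.45, SE 0.12, adjusted p = 0.041), Col18a1 (-0.71, SE 0.17, adjusted p = 0.030) and Col14a1 (-1.25, SE 0.35, adjusted p = 0.042). The values of type I moved with that library: Col1a1 was at log2 -0.93 (SE 0.57) with it and -0.47 (SE 0.15, edgeR adjusted p = 0.060) without it, and Col1a2 at -0.56 (SE 0.38) and -0.20 (SE 0.12). Col4a2 was at -0.47 with it and -0.45 without it. The summed CPM of 5 leukocyte markers was 805, 1376 and 35.5 in cKO EAE and 6464, 3080 and 2328 in control EAE libraries. At basal it was 14.2 to 25.6. The part of leukocyte content in the collagen differences was not tested. The summed CPM of 6 Schwann cell markers, from the nerve roots, was 367, 168 and 213 in cKO EAE and 139 to 152 in control EAE libraries, with no overlap. Of 5 tested none was called with all libraries, and without cKO EAE 3, 3 were called higher and 1 lower in cKO (9.11% and 9.1% of all genes). Of 7 markers of spinal cord cells 3 were called higher in cKO EAE (6.13% of all genes were). Among them were the neuronal Snap25 (log2 1.09, SE 0.19) and Chat (1.92, SE 0.42). Gfap (-0.61, SE 0.51) and Aqp4 (-0.63, SE 0.30) of the same list went the other way and were not called. The part of nerve root and cord cells in the collagen differences was not tested.

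**Figure D5:**
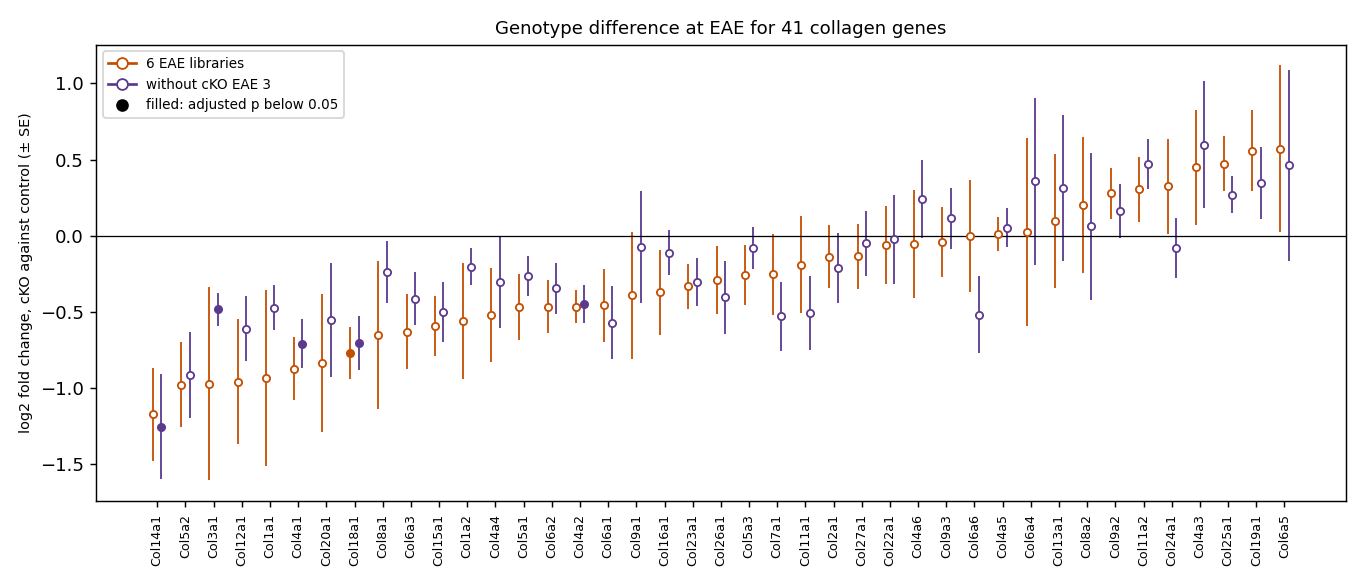
Log2 fold change of cKO against control at EAE (vertical axis, bars are SE) for the 41 tested collagens, with all 6 libraries and without cKO EAE 3. Filled points passed an adjusted p below 0.05, 1 with all libraries (Col18a1) and 5 without cKO EAE 3.

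At basal no difference between cKO and control cords passed the test: 0 of 40 collagens passed in edgeR's quasi-likelihood test (0.0% of all genes), in DESeq2's Wald test (0.00584% of all genes) and in limma voom with sample weights (0.0% of all genes), and 0 had an unadjusted p below 0.05. The 5 smallest p values belonged to Col11a2 (log2 -0.45, SE 0.25), Col23a1 (0.45, SE 0.33), Col27a1 (0.42, SE 0.33), Col4a4 (0.70, SE 0.55) and Col22a1 (0.46, SE 0.38). In no collagen were the cKO and control libraries apart, while 2.14% of all genes had cKO wholly above and 3.64% wholly below. The SE of the 40 genes ran from 0.25 to 1.34 with cKO basal 2 and from 0.15 to 0.72 without it, and 0 passed without it. The 5 genes named were each farther from 0 than their SE and did not pass. Differences of that size or smaller were not detectable with 3 libraries a group.

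Other genes of collagen making were higher in EAE in control mice, and lower in cKO than in control EAE cords, where they were called with all libraries. Of 15 genes that hydroxylate and glycosylate collagen chains, 4 were called higher in EAE in controls, where 12.1% of all genes were, Plod3 (log2 1.39, SE 0.26), P4hb (1.03, SE 0.23), Crtap (1.39, SE 0.37) and P4ha1 (1.05, SE 0.31). Of 6 genes of folding and export 2 were called higher, the collagen chaperones Fkbp10 (1.45, SE 0.25) and Serpinh1 (1.61, SE 0.30). Of 5 cross-linking genes 2 were called, the lysyl oxidases Lox (6.30, SE 0.91) and Loxl1 (1.75, SE 0.35). None of the 8 genes of propeptide removal was called. The median log2 fold change was 1.03, 0.67, 2.62 and -0.27 in these 4 lists, against -0.01 over all genes.

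Of 8 tested receptors and uptake genes 4 were called higher in controls, against the same 12.1% of all genes, the leukocyte collagen receptor Lair1 (log2 3.14, SE 0.49), the collagen-binding integrins Itga2 (3.08, SE 0.59) and Itga1 (1.62, SE 0.38), and Ddr2 (1.38, SE 0.39), a receptor kinase for fibrillar collagen. Of 16 partners in the basement membrane 3 were called, a share near that 12.1%, the laminins Lama4 (1.72, SE 0.26) and Lamb2 (0.94, SE 0.24) and perlecan Hspg2 (2.27, SE 0.50). Of 9 genes of TGF-beta signalling, a main inducer of collagen, 6 were called, among them Tgfb1 (3.48, SE 0.53), Tgfbr2 (2.90, SE 0.38), Tgfbi (6.50, SE 0.99) and Ltbp2 (5.27, SE 0.88). In cKO mice edgeR called 0 of the 67 tested genes of these 7 lists, with 18 at an unadjusted p below 0.05, where it called 0.0376% of all genes, and DESeq2's Wald test called 11, where it called 6.66% of all genes. In the 10-library fit, where 10.8% of all genes were called higher in cKO and 24.9% in control mice, 6 of 9 TGF-beta genes and 4 of 5 cross-linking genes were called higher in both genotypes. In that fit 6 of the 15 hydroxylation and glycosylation genes were called higher in cKO and 11 in control mice, and 1 and 2 were called lower. Of the 6 of folding and export 1 was called higher in cKO and 3 in control mice, and 0 and 1 lower. Of the 8 of propeptide removal 2 were called higher in cKO and 3 in control mice, and 0 and 3 lower. Of all genes 3.51% were called lower in cKO and 20.8% in control mice. Among the 16 basement membrane partners 5 were called higher in cKO and 11 in control mice. Among the 8 receptors and uptake genes 2 were called higher in cKO and 5 in control mice.

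In the cKO and control EAE libraries, 4 of the 15 hydroxylation and glycosylation genes were called lower in cKO (1.54% of all genes were), named here after their values were seen: P4ha1 (log2 -0.89, SE 0.20), Crtap (-0.73, SE 0.17), Plod2 (-0.63, SE 0.14) and Colgalt1 (-0.81, SE 0.18). Of the other 6 lists only Fkbp10 in folding and export (-0.85, SE 0.19) was called, and it was lower. Without cKO EAE 3, where 9.1% of all genes were called lower and 9.11% higher, the counts called lower were 6 of 15 for hydroxylation and glycosylation, 3 of 6 for folding and export, 5 of 9 for TGF-beta signalling, 2 of 16 for basement membrane partners and 1 each for the other 3, and 2 genes of propeptide removal, Adamts2 and Adamts3, were called higher.

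Markers of the cells that make collagen were counted beside it. The summed CPM of 10 fibroblast and meninges markers was 174, 69.2 and 59.5 in cKO EAE, 76.1, 85.0 and 104 in control EAE, 27.1, 107 and 26.5 in cKO basal and 35.4, 28.1 and 25.3 in control basal libraries. Of 8 tested, 3 were called higher in EAE in controls (12.1% of all genes were), the collagen-binding proteoglycans Dcn (log2 2.31, SE 0.44) and Lum (2.29, SE 0.54), and Aldh1a2 (1.37, SE 0.38). Of 7 endothelial markers 1 was called, Pecam1 (1.497, SE 0.29), a share near that of all genes, and 6 were called in the 10-library fit (24.9% of all genes). Pericyte and smooth muscle markers summed to 333 to 355 CPM in cKO EAE, 286 to 309 CPM in control EAE, 152 to 243 CPM in cKO basal and 230 to 237 CPM in control basal libraries. In the same order of libraries, Col1a1 had 75.2, 76.9 and 13.8 CPM in cKO EAE and 125, 113 and 87.9 CPM in control EAE. The part of these cells in the collagen values was not tested.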

How the data were processed

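Total RNA of whole spinal cord had been sequenced in 12 libraries, labelled as biological replicates. The authors deposited raw read counts per gene for 54532 genes. The submitters' processing notes name HISAT2 2.0.5, featureCounts 1.5.0-p3 and the build mm10. Not given in the sources used here were strand use, annotation release and treatment of multi-mapped reads, so counts of overlapping genes are uncertain: over 5% of exon bases were shared with another gene in 2 collagens, Col4a3 and Col9a3. Groups came from the labels.

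The collagens and all gene lists were chosen with earlier results of these data known. Tests were edgeR 4.0.16 quasi-likelihood F tests (limma 3.58.1, R 4.3.3) with TMM factors and edgeR's low-count filter (minimum count 10, minimum total 15), and a gene was called at a Benjamini-Hochberg adjusted p below 0.05 over all genes tested. SE was the size of the log2 fold change over the square root of F. Both EAE responses and their difference came from 1 fit of 12 libraries, and genotypes were compared within the 6 libraries of a state. Chain ratios were tested with exact permutation tests (SciPy 1.17.1). Scripts were tested on simulated counts. Collagens were named by a rule: up to 6 of the highest per kb in each class, all called, and the 5 smallest p in a comparison with fewer than 5 calls; of other lists, up to 4 by smallest p in controls. DESeq2 1.42.0, limma voom with sample weights, other factors, no filter, the replicate block and left-out libraries were the alternatives. At 15128913 to 17592105 counts per library, genes under 1 CPM rest on few reads. Promoter windows came from RefSeq, build GRCm38.p6, whose gene starts for the 3 printed windows equal those of the deposited table.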

Additional observations from a re-analysis of the deposited data

How the results depend on the processing

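For EAE against basal in control mice the count of called collagens was 10. With limma voom and sample weights it was 27, and with the 6 control libraries alone 22. Without cKO basal 2 and cKO EAE 3 together it was 23, where 24.9% of all genes were called higher and 20.8% lower. Leaving out 1 library gave 6 to 21. The 6 came without control basal 1, control basal 2, control basal 3 or control EAE 3. Without cKO basal 2 it was 21, where 42.9% of all genes were called. A count given without the share of all genes shows how far the setting moved it and is not read as a result about collagens. Col1a1, Col1a2, Col3a1, Col5a1, Col8a1 and Col18a1 passed in all 19 alternatives run for this comparison, Col12a1 in 15 and Col4a1, Col16a1 and Col20a1 in 11. For EAE against basal in cKO mice the count was 0; it was 2 without the filter, 6 with DESeq2's Wald test, 13 with voom and 11 without both libraries, and 0 to 5 with 1 library left out, 5 without cKO EAE 3. The difference between responses gave 0 and, with voom, 8. For cKO against control at EAE the count was 1; it was 2 without the filter, 7 with DESeq2's Wald test, 12 with voom, 0 with all 12 libraries, and 0 to 7 with 1 library left out. At basal every alternative gave 0, and with voom Col27a1 turned to -0.0033 on the log2 scale from 0.42. With the replicate block the counts were 8, 0, 0, 0 and 0 in these 5 comparisons. Same-numbered libraries deviated together with correlations of -0.51 to 0.42, and differently numbered ones with -0.52 to 0.54. With so few libraries a group and cKO basal 2 apart, these correlations cannot decide whether the numbers pair the samples. The causes were not tested. Leaving out each library, chosen after seeing the data, kept the direction of the ratios of Col1a1 to Col1a2 and Col4a1 to Col4a2 in EAE; of these, the type I ratio in cKO mice moved by over 1.5 times, to 2.02 from 3.19, without cKO basal 2. At this depth genes under 1 CPM rest on few reads.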

Other observations

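Several collagens are neighbours in the genome. Col3a1 and Col5a2 lie end to end on chromosome 1, 24614 bases apart, and their log2 fold changes in EAE were 3.37 (SE 0.73) and 0.22 (SE 0.47) in cKO mice and 4.12 (SE 0.75) and 1.05 (SE 0.47) in control mice. Col4a4 and Col4a3 start head to head, 71 bases apart, with log2 fold changes of 0.00 (SE 0.45) and 1.00 (SE 0.79) in cKO mice and 1.23 (SE 0.45) and 0.07 (SE 0.78) in control mice, none of which passed. Col4a6 and Col4a5, 1308 bases apart and head to head on chromosome X, had 0.93 (SE 0.43) and 0.66 (SE 0.39) in cKO mice and 1.35 (SE 0.43) and 0.40 (SE 0.39) in control mice. Differences between neighbours were not tested.

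By class, the median log2 fold change in EAE was 0.22 in cKO and 1.04 in control mice for fibrillar collagens, against 0.08 in cKO and -0.01 in control mice over all genes. It was 0.79 in cKO and 1.04 in control mice for type IV and 0.29 in cKO and 0.67 in control mice for type VI. The fibril-associated collagens had 0.37 in cKO and 0.27 in control mice, and the transmembrane collagens -0.43 in cKO and -0.68 in control mice. The tested transmembrane collagens were only Col13a1, at most 2.63 CPM, Col23a1 and Col25a1. Without cKO basal 2 and cKO EAE 3 the transmembrane median in cKO mice was -0.07, the value of Col13a1. The fibril-associated median in cKO mice was then 0.13 (Col9a3) and the fibrillar 0.28 (Col11a2). The type VI median lay between -0.17 (Col6a2) and 0.26 (Col6a6), and that of type IV between 0.49 (Col4a4) and 0.61 (Col4a3). The fibrillar class held both the largest log2 fold change in controls, Col3a1, and genes near 0, such as Col11a1.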
